A study of Mus musculus with 12 samples.

Results

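Mouse iPS6F cells, induced pluripotent stem cells made with 6 delivered factors, were compared with iPS4F cells, made with 4 of them. Oct4 (the gene Pou5f1), c-myc (Myc), Klf4 and Sox2 were given to both, and Brg1 (Smarca4) and Baf155 (Smarcc1) to iPS6F alone. The comparison rests on the 3 arrays titled iPS6F and the 3 titled iPS4F, which are 6 of the 12 arrays of the series, and on all 45281 probes of the Illumina bead array. Both kinds of iPS cells are labelled male. The other 6 arrays hold OG2 embryonic stem cells of mixed sex (ESC) and male OG2 embryonic fibroblasts (MEF), with 3 arrays of each, and they serve here only as landmarks and for the estimate of spread. The labels used here do not say how the factors were delivered, which clones or passages were used, or whether the 3 arrays of a group came from separate cultures. The p-values therefore reflect only how far these samples scatter, and that scatter may be technical.

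Induced pluripotency is reached when a few transcription factors, delivered into a somatic cell, switch on the cell's own pluripotency genes. Brg1 is the ATPase of the BAF complex, which slides and evicts nucleosomes, and Baf155 is a core subunit that holds the complex together. Embryonic stem cells use a BAF complex built around these same subunits. The comparison asks which transcripts differed once cells had been reprogrammed with or without the added BAF subunits.

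The labels were checked against marker genes before the comparison. The pluripotency markers Pou5f1, Nanog, Sox2, Zfp42, Dppa5a and Tdgf1 were detected on all iPS arrays, and their summed background-corrected intensity ran from 20380 to 21000 in iPS6F and from 16470 to 19930 in iPS4F. Of 8 fibroblast markers, Col1a1, Col1a2, Col3a1, Dcn and Postn were undetected on every iPS6F array, and Col1a1, Col3a1 and Postn on every iPS4F array. Thy1, Lox and Twist1 were detected on all iPS arrays. Their means were 5.09, 4.77 and 4.51 in iPS6F, 5.45, 5.36 and 4.51 in iPS4F, and 11.71, 13.54 and 8.64 in MEF. Eif2s3y, a gene of the Y chromosome, was detected on all 6 iPS arrays and Xist on none of them, while all 3 MEF arrays, labelled male, detected Xist. The dimmer Y genes were less uniform. Uty was detected on 0 iPS6F and 3 iPS4F arrays (difference -0.34), Zfy1 on 2 and 3 (-0.43) and Kdm5d on 0 and 1. Neither Uty nor Zfy1 passed the test described below (adjusted p = 0.260 and 0.136). Before normalization the mean intensity of an array was 177, 209 and 184 in iPS6F and 237, 215 and 213 in iPS4F, lower on every iPS6F array. The median intensity was 77.25, 81.69 and 78.52 in iPS6F and 80.59, 79.28 and 81.39 in iPS4F, and here the groups overlapped. Across kept probes the arrays of the 2 groups correlated at 0.986 to 0.992, against 0.990 to 0.993 within iPS6F and 0.990 to 0.994 within iPS4F. In such whole-culture samples, fewer cells of a type and less RNA per cell cannot be told apart.

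Of 17563 probes detected on all 3 arrays of at least 1 group, 106 passed limma's test at an adjusted p under 0.05, which is 0.604% of them. In iPS6F 36 probes were higher (0.205% of those tested) and 70 were lower (0.399%). The values are log2 intensities after background correction and quantile normalization, and each difference is iPS6F minus iPS4F with its standard error (SE). Of the 106 probes, 18 differed at least 2-fold, 6 of them higher and 12 lower. The median size of a called difference was 0.71 on the log2 scale, the smallest was 0.45, and the median over all tested probes was -0.0026. In every called probe the 3 arrays of the higher group all lay above the 3 of the lower group. That separation held for 2910 of all tested probes, or 16.6%. The 106 probes carry 88 gene symbols, and 12 of them carry no single symbol here. Below, genes are grouped by known role. Apart from the counted gene lists, these groups were formed after the values were seen. Each count of called list members stands against 80 of 10096 genes, or 0.792%, with 1 probe a gene. At that share a single call in a short list, or none, says little about the list.

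**Figure D1:**
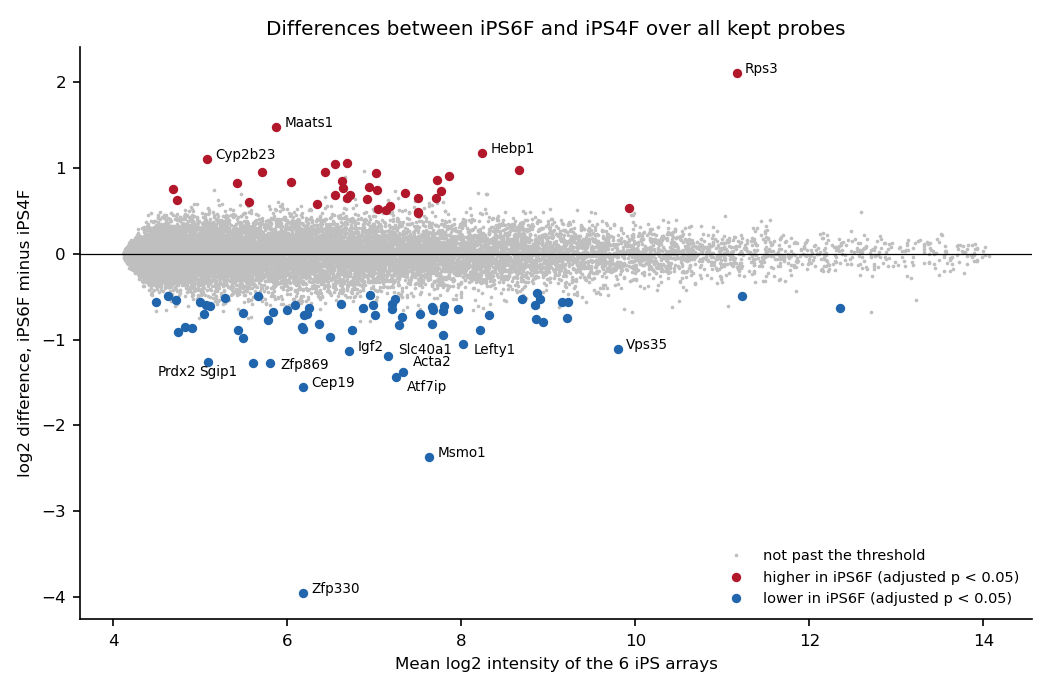
The log2 difference between iPS6F and iPS4F (vertical axis) is plotted against the mean log2 intensity of the 6 iPS arrays (horizontal axis) for all 17563 kept probes. Red points are the 36 probes higher and blue points the 70 probes lower in iPS6F at an adjusted p under 0.05, and named genes differ at least 2-fold.

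The delivered factors came first as a check of the labels. Smarca4 stood at 5.95, 6.20 and 6.01 on the iPS6F arrays, against 5.93, 5.80 and 5.85 on the iPS4F arrays, a difference of 0.20 ± 0.11 (adjusted p = 0.560). Its arrays did not overlap, but the difference did not pass the test. Smarcc1 stood at 8.54, 8.28 and 8.52 in iPS6F and at 7.95, 8.20 and 8.43 in iPS4F, a difference of 0.25 ± 0.17 (adjusted p = 0.633). Here the groups overlapped. Pou5f1 differed by 0.40 ± 0.12 (adjusted p = 0.175), and its other probe by 0.30. The Klf4 probe that was brightest over all 12 arrays differed by 0.35 ± 0.15, and the other Klf4 probes by 0.40 and 0.26. Sox2 differed by 0.09 ± 0.17 and its dimmer probe by -0.13, while Myc was undetected on all iPS arrays. The brightest probes of all 6 factors over the 12 arrays gave positive differences (median 0.225) and none passed, but those of Smarca4, Smarcc1 and Sox2 turned negative with arrays set to a common median intensity. That setting shifted the median of all kept probes to -0.25. Whether these probes lie in the delivered sequences is not given in the sources used here, so they check neither delivery nor later silencing. None of the 26 measured subunits of the BAF and PBAF complexes passed the test, against 0.792% of all 10096 genes, each represented by 1 probe. Their median difference was -0.022, with 11 positive and 15 negative, from -0.49 ± 0.19 for Arid2, a subunit found only in PBAF, to that of Smarcc1.

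The largest difference of all belonged to a probe of Zfp330, a zinc finger protein gene of chromosome 8. It read 4.13, 4.20 and 4.28 in iPS6F, where no array detected it, against 8.34, 8.13 and 8.01 in iPS4F, where every array did. This probe was at least 13.6-fold lower in iPS6F (adjusted p = 9.22e-11). The "at least" marks a bound, set by the dimmest detected signal of each array. The ESC arrays did not detect this probe either, and the MEF mean was 7.40. The gene's other kept probe read 8.45, 8.22 and 8.28 in iPS6F and 8.22, 8.20 and 8.56 in iPS4F, a difference of -0.01 ± 0.13. Both probes of Zfp330 were thus bright in iPS4F, and 1 of them was undetected in iPS6F while the other was level between the lines.

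Msmo1 was next among the lower probes. Its enzyme, methylsterol monooxygenase 1, removes methyl groups from sterols on the way to cholesterol. The probe read 6.53, 6.37 and 6.45 in iPS6F and 9.08, 8.64 and 8.73 in iPS4F, a 5.16-fold lower level (log2 difference -2.37 ± 0.13, adjusted p = 7.31e-08). Every iPS6F array was more than 2 log2 units below every iPS4F array, and the ESC mean of 9.31 lay beyond iPS4F. Msmo1 was the sole member called among 22 measured genes of cholesterol and fatty acid synthesis, whose median difference was -0.012. The next largest was Lss, lanosterol synthase, at -0.48 (adjusted p = 0.189).

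Cep19, which encodes a protein of the centrosome and the base of the cilium, read 5.40, 5.17 and 5.63 in iPS6F and 6.94, 7.03 and 6.88 in iPS4F (difference -1.55 ± 0.12, adjusted p = 5.72e-06). Its neighbour Pigx, which acts in the synthesis of the GPI anchors that tether proteins to membranes, read 8.87, 8.99 and 8.67 in iPS6F and 9.75, 9.59 and 9.43 in iPS4F (-0.74 ± 0.14, adjusted p = 0.0204). Without iPS4F array 1 or 2, or iPS6F array 1 or 3, the Pigx call ended (adjusted p up to 0.137). Both genes also averaged higher in ESC than in either iPS line. In the mouse gene table used here no gene lies between them, and they are transcribed away from each other from starts 61 bases apart. The window around the Cep19 start is shown because it holds the interval that both called genes share. It lies at chr16:32099539-32099838 of GRCm38.p6, on the plus strand, and is taken from RefSeq. Capitals mark the bases between the starts.
Cep19: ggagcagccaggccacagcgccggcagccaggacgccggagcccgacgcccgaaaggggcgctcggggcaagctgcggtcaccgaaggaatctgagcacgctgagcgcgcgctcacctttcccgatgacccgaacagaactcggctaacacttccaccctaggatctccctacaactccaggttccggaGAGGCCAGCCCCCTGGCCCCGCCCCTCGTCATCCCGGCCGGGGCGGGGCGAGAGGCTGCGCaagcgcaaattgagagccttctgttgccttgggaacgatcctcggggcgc

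Acta2, Myl9 and Acta1, which build the contractile actin cytoskeleton, were lower in iPS6F. Acta2, smooth muscle alpha-actin, read 6.75, 6.31 and 6.85 in iPS6F and 7.97, 8.10 and 7.98 in iPS4F (-1.38 ± 0.13, adjusted p = 3.08e-05). A second Acta2 probe was also called, at -0.69, and its MEF mean was 12.97. Its other 2 kept probes gave -0.27 and -0.22 and did not pass. Myl9, the regulatory light chain of smooth muscle myosin, read 4.79, 4.88 and 5.31 in iPS6F and 5.95, 5.80 and 5.88 in iPS4F (-0.88 ± 0.14, adjusted p = 0.00446). Acta1, skeletal alpha-actin, chosen after its values were seen, read 4.25, 4.45 and 4.49 in iPS6F, where 2 of 3 arrays detected it, and 5.09, 5.31 and 5.37 in iPS4F (-0.86 ± 0.16, adjusted p = 0.0190). The actin genes are near-identical in their coding sequence, so probes of Acta1 and Acta2 may share transcripts. In the called probes of all 3 genes the iPS4F arrays lay above the iPS6F arrays with no overlap, as in every called probe that was lower. Lox, which cross-links collagen and elastin, was lower too (-0.59 ± 0.12, adjusted p = 0.0320). Leaving out single arrays other than iPS4F array 3 ended the Lox call (adjusted p up to 0.198), and leaving out iPS4F array 2 or any iPS6F array ended that of Acta1 (up to 0.102).

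Acta2 and Lox were the called members among 40 measured fibroblast and mesenchyme genes, of which 15 differences were positive and 25 negative (median -0.067). Bgn, a matrix proteoglycan, differed by -0.74 (adjusted p = 0.0603), Tpm1, tropomyosin, by -0.55 (adjusted p = 0.0934) and Vim, vimentin, by 0.61 (adjusted p = 0.105). The summed intensity of the 8 fibroblast markers was 43.4 to 56.8 in iPS6F and 72.6 to 82.5 in iPS4F, with no overlap, against 26420 to 29800 in MEF. Lox is one of these 8 markers, so this sum is not separate from the Lox call. Summed over all 40 genes of the list, Acta2 and Lox included, the intensity was 2411 to 2457 in iPS6F and 2328 to 2459 in iPS4F. The part of remaining fibroblasts in the lower actin and Lox levels was not tested.

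The CArG box is the motif that serum response factor binds in many muscle and actin genes. It was searched on both strands in its exact form only, which is CC, then only A or T, then GG, 10 letters in all. The start windows of Acta1 and Myl9, from 250 bases before to 50 bases after the start, each hold 1 such box. They are printed because both genes are among the lower ones. The Acta2 window holds none of this exact form, and 535 of 32851 windows of the RefSeq table, or 1.63%, hold at least 1. Boxes that depart from this form by a letter were not counted, in Acta2 or elsewhere. A match is a description of the letters and shows no binding. The windows lie at chr8:123894726-123895025 (minus strand) for Acta1 and at chr2:156775214-156775513 (plus strand) for Myl9, in GRCm38.p6. Capitals mark the box, which begins 73 bases before the Acta1 start and 161 bases before the Myl9 start.
Acta1: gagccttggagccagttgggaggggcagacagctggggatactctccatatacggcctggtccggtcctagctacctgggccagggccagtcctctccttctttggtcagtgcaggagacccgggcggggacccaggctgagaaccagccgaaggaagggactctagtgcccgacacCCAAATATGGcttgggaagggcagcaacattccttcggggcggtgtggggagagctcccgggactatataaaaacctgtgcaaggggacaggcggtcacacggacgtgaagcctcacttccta
Myl9: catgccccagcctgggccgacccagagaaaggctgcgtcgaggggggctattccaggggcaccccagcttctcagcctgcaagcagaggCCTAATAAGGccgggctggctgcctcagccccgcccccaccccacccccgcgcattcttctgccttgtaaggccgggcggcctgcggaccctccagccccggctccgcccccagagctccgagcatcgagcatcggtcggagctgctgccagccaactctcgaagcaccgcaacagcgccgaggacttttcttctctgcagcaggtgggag

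Lefty1, Smad3, Dusp6, Igf2 and Cxcl12, all of them genes of cell signalling, were lower in iPS6F. Lefty1, a secreted inhibitor of Nodal and one of the Nodal pathway's own targets, read 7.53, 7.60 and 7.36 in iPS6F and 8.54, 8.48 and 8.60 in iPS4F (-1.04 ± 0.12, adjusted p = 3.21e-04). Its ESC mean was 8.73, close to iPS4F. Smad3, which carries Nodal and TGF-beta signals to the nucleus, read 6.92, 6.84 and 6.88 in iPS6F and 7.55, 7.63 and 7.37 in iPS4F (-0.64 ± 0.11, adjusted p = 0.0119). A further Smad3 probe gave 0.04 and did not pass. Without iPS4F array 1 or 2, or iPS6F array 2 or 3, the Smad3 call ended (adjusted p up to 0.0997). Lefty1 and Smad3 were the 2 called among 11 measured genes of Nodal and Lefty signalling, against 0.792% of all genes. The median of the list was -0.056. Lefty2, also an inhibitor of Nodal, differed by -0.30 (adjusted p = 0.354).

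Dusp6, a phosphatase that ERK signalling induces and that switches ERK off, read 7.33, 7.09 and 7.36 in iPS6F and 8.29, 8.0035 and 7.93 in iPS4F (-0.81 ± 0.12, adjusted p = 0.00342). Its other kept probe, dim but detected on all iPS arrays, gave -0.13 and did not pass. Dusp6 was the called member of 21 measured ERK targets and immediate early genes, against 0.792% of all genes. Of the 21, 14 gave negative differences (median -0.058). Egr1, an immediate early transcription factor, differed by -0.67 (adjusted p = 0.0821), and Spred1, an inhibitor of the Ras pathway, by -0.45 (adjusted p = 0.260). Igf2, the imprinted fetal growth factor, read 6.12, 6.48 and 5.83 in iPS6F and 7.36, 7.34 and 7.12 in iPS4F (-1.13 ± 0.16, adjusted p = 0.00247). Its ESC mean was 5.004 and its MEF mean 14.01. Among 18 measured imprinted genes Igf2 alone was called, against 0.792% of all genes. Grb10 stood at -0.64 (adjusted p = 0.0557) and Gnas at 0.63 (adjusted p = 0.110). Cxcl12, a chemokine that attracts stem and immune cells, was chosen after its values were seen. It differed by -0.89 ± 0.11 (adjusted p = 6.15e-04), while its other 2 kept probes gave -0.08 and 0.03.

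**Figure D2:**
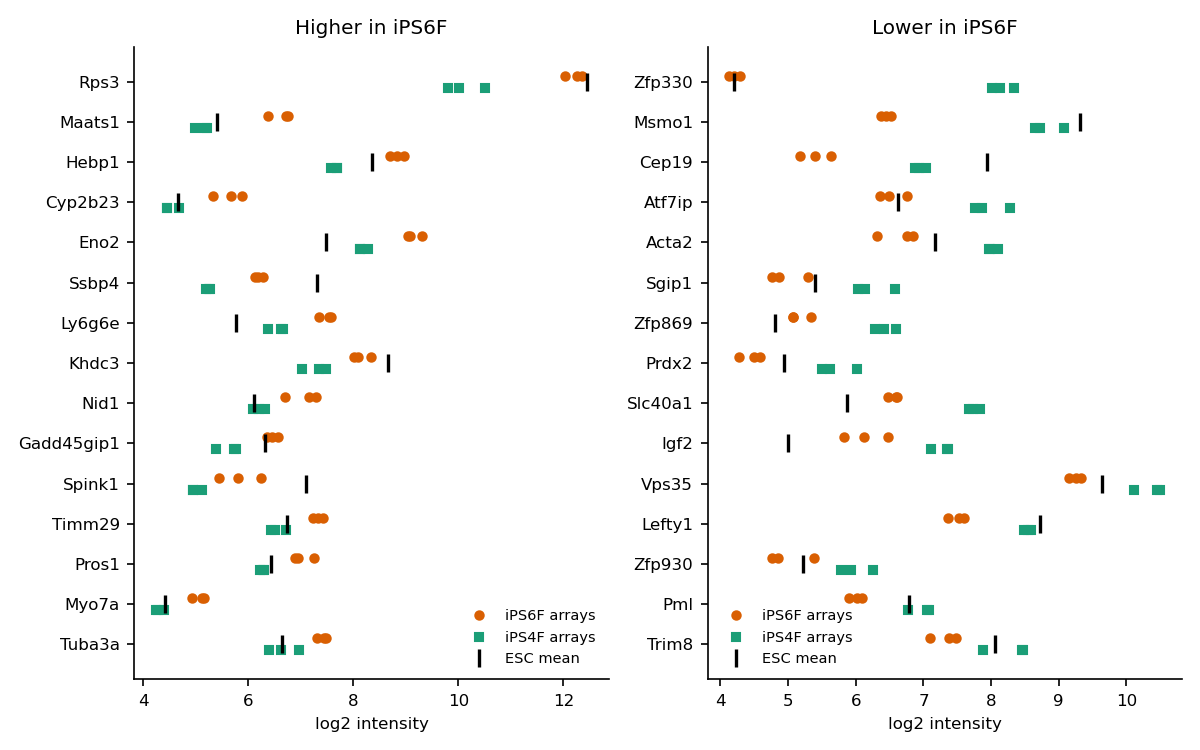
Log2 intensity (horizontal axis) of the 15 genes of largest positive difference (left) and the 15 of largest negative difference (right). Orange circles are the 3 iPS6F arrays, green squares the 3 iPS4F arrays and black bars the ESC mean. The genes were chosen so that the iPS6F and iPS4F arrays do not overlap. For Zfp330 the ESC mean of 4.19 sits with iPS6F, while for Msmo1 the ESC mean of 9.31 lies beyond iPS4F.

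Regulators of chromatin and transcription were among the lower genes as well. Atf7ip, a partner of the histone H3 lysine 9 methyltransferase SETDB1, read 6.48, 6.75 and 6.36 in iPS6F and 8.27, 7.86 and 7.76 in iPS4F (-1.43 ± 0.15, adjusted p = 2.04e-04). The ESC mean of 6.62 lay within the iPS6F arrays. The other Atf7ip probe gave -0.38 and did not pass. Pml, the scaffold of nuclear bodies, was called with 2 probes, at -0.97 and -0.79, while its other 3 kept probes gave -0.24 to -0.03. Zfp869 and Zfp930, zinc finger genes close to each other on chromosome 8, differed by -1.27 ± 0.14 and -0.99 ± 0.19 (adjusted p = 2.12e-04 and 0.0225). The other 3 kept probes of Zfp869, all dim, gave -0.12, -0.02 and -0.01 and did not pass. The Zfp930 call ended without iPS4F array 1, or iPS6F array 2 or 3 (adjusted p up to 0.148). Trim8, a ubiquitin ligase, differed by -0.95 ± 0.17 (adjusted p = 0.0167). The Trim8 call ended without iPS4F array 1 or 2, or iPS6F array 1 or 3 (up to 0.120).

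Dnmt3b, which sets new DNA methylation in early embryos, read 11.09, 10.96 and 10.90 in iPS6F and 11.52, 11.57 and 11.33 in iPS4F (-0.49 ± 0.10, adjusted p = 0.0445), and its other probe gave -0.39. Leaving out any array but iPS4F array 3 ended this call (adjusted p up to 0.257). It was the called member of the DNA methylation and Polycomb list (15 measured, median -0.018) and of the list for primed pluripotency and germ layer entry (11 measured, median -0.048). Rhox9, an X-linked homeobox gene active in germ cells, differed by -0.87 ± 0.16 (adjusted p = 0.0167), and its neighbour in the same cluster, Rhox6, by -0.50 (adjusted p = 0.0663). The Rhox9 call ended without iPS4F array 2, or iPS6F array 1 or 3 (up to 0.122). Of 9 measured germline genes Rhox9 was the called member, against 0.792% of all genes. None of 22 other chromatin remodelers and histone modifiers was called (median -0.043). Hes6, a transcription factor that counters Hes1, and Bach1, a repressor released from DNA by heme, were chosen after their values were seen. They differed by -0.89 ± 0.13 and -0.83 ± 0.17. The Bach1 call ended without iPS4F array 1 or 2, or iPS6F array 2 or 3 (adjusted p up to 0.194).

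Genes for iron, redox and membrane traffic were also found among the lower probes. Slc40a1 encodes ferroportin, the iron exporter of the cell membrane. It read 6.59, 6.47 and 6.61 in iPS6F and 7.83, 7.74 and 7.67 in iPS4F (-1.19 ± 0.11, adjusted p = 2.62e-05). Prdx2, a peroxidase of the cytosol, was represented by a dim called probe at -1.26 ± 0.16. Its brightest probe, at a mean of 11.6 in iPS6F and 11.7 in iPS4F, differed by -0.06 ± 0.12, and did not pass. Vps35, the core of the retromer complex that recycles membrane receptors, read 9.25, 9.33 and 9.16 in iPS6F and 10.50, 10.45 and 10.11 in iPS4F (-1.11 ± 0.13, adjusted p = 4.26e-04). The other Vps35 probe gave -0.17 and did not pass. Sgip1, an adaptor of endocytosis, differed by -1.28 ± 0.16 (adjusted p = 8.68e-04). None of 21 measured metallothionein and antioxidant genes was called, since the dim Prdx2 probe did not represent its gene there.

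Metabolic genes went both ways. Among 17 measured genes of glycolysis, Eno2, an enolase best known from neurons, was higher and Pkm, pyruvate kinase, lower. Eno2 read 9.04, 9.08 and 9.31 in iPS6F and 8.12, 8.27 and 8.12 in iPS4F (0.98 ± 0.12, adjusted p = 5.39e-04). The bright Pkm probe read 12.12, 11.97 and 12.02 in iPS6F and 12.65, 12.69 and 12.67 in iPS4F (-0.63 ± 0.11, adjusted p = 0.0148). A dim Pkm probe was called as well, at -0.91. Without iPS4F array 1 or 2, or iPS6F array 2 or 3, the call of the bright Pkm probe ended (adjusted p up to 0.0934). The other 15 glycolysis genes did not pass, and the median of the list was 0.011. Over all genes 0.792% passed. Gpt2, a mitochondrial alanine transaminase, differed by -0.63 ± 0.13 and was the called member of 25 measured genes of the integrated stress response. The Gpt2 call ended without iPS4F array 1 or 2, or iPS6F array 1 or 3 (up to 0.212).

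Of the higher probes, that of Rps3, a protein of the small ribosomal subunit, differed most. It read 12.26, 12.03 and 12.36 in iPS6F and 10.51, 9.80 and 10.02 in iPS4F, a 4.31-fold higher level (2.11 ± 0.15, adjusted p = 2.55e-06). The ESC mean was 12.5 and the MEF mean 11.2, so the iPS4F arrays were the low ones among the 4 groups. The gene's other probe, at a mean of 11.5 in both lines, differed by -0.01 ± 0.16. Of 19 measured cytosolic ribosomal proteins Rps3 was the called member, against 0.792% of all genes, and the median of the list was 0.039. Ribosomal protein genes have many processed copies, which a probe may also bind. Gadd45gip1, a subunit of the mitochondrial ribosome, differed by 0.84 ± 0.13, and Timm29, of the import machinery of the inner mitochondrial membrane, by 0.78 ± 0.12 (adjusted p = 0.00619 and 0.00469).

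Nid1, Lama1 and Col4a1, components of the sheet of matrix under epithelia called the basement membrane, were higher in iPS6F. Nid1, nidogen, which joins laminin to collagen IV, read 7.29, 7.16 and 6.70 in iPS6F and 6.09, 6.21 and 6.31 in iPS4F (0.85 ± 0.14, adjusted p = 0.00852). Its other probe, near background, gave -0.06. Lama1, the laminin alpha chain of the early embryo, read 7.15, 7.05 and 6.98 in iPS6F and 6.53, 6.45 and 6.13 in iPS4F (0.69 ± 0.13, adjusted p = 0.0204). Col4a1, a chain of collagen IV, read 7.66, 7.78 and 7.80 in iPS6F and 7.18, 7.30 and 7.29 in iPS4F (0.49 ± 0.10, adjusted p = 0.0443). The Col4a1 call ended without any 1 of the 6 arrays (adjusted p up to 0.204), that of Lama1 without any but iPS4F array 1 (up to 0.0798), and that of Nid1 without iPS4F array 1 or iPS6F array 2 (up to 0.0604).

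Lama1 and Col4a1 were the 2 called among 14 measured genes of primitive endoderm and trophectoderm, tissues whose cells lay down this matrix. Over all genes 0.792% passed. Both are basement membrane genes given above, so this count is not separate from those calls. The MEF mean was 11.015 for Col4a1 and 10.06 for Nid1, above both iPS lines, but 4.71 for Lama1, below both. Sparc, which binds collagen, differed by 0.51 (adjusted p = 0.0522), and Gata6, the transcription factor of primitive endoderm, by 0.60 (adjusted p = 0.154). The median of the list was 0.033, with 8 positive and 6 negative. The summed intensity of the endoderm markers Sox17, Gata4, Gata6 and Sox7 was 52.6 to 83.4 in iPS6F and 38.9 to 47.7 in iPS4F. In ESC it was 70.0 to 76.1 and in MEF 196 to 275. Only Gata6 among them was detected on all iPS arrays, so the sum rests mainly on Gata6, whose difference did not pass. Sox7 was undetected on all 6 iPS arrays and Gata4 on all iPS6F arrays. The part of endoderm-like cells in the basement membrane values was not tested.

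Genes tied to the early embryo and to pluripotency were among the higher ones. Khdc3, a maternal protein of the egg's subcortical complex, read 8.34, 8.01 and 8.10 in iPS6F and 7.03, 7.34 and 7.49 in iPS4F (0.87 ± 0.13, adjusted p = 0.00349), with an ESC mean of 8.67. Fgf4, the growth factor by which pluripotent cells signal to each other and to primitive endoderm, read 7.49, 7.46 and 7.43 in iPS6F and 6.82, 6.997 and 6.90 in iPS4F (0.56 ± 0.10, adjusted p = 0.0190). Its ESC mean, 5.27, lay below both lines. Without any array but iPS4F array 3 the Fgf4 call ended (adjusted p up to 0.122). Fgf4 was the called member of 27 measured genes of core and naive pluripotency, of which 19 gave positive differences (median 0.117, against -0.014 over all 10096 genes). Ly6g6e, a GPI-anchored protein of the Ly6 family, was called with both of its kept probes, at 0.94 and 0.91. Its ESC means of 5.76 and 7.04 lay below iPS4F for both probes.

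Hebp1, a heme-binding protein, read 8.97, 8.84 and 8.69 in iPS6F and 7.57, 7.69 and 7.69 in iPS4F (1.18 ± 0.10, adjusted p = 1.69e-05). Maats1, a protein of motile cilia, read 6.37, 6.71 and 6.75 in iPS6F and 5.22, 4.98 and 5.18 in iPS4F (1.48 ± 0.13, adjusted p = 1.69e-05). Cyp2b23, a cytochrome P450, read 5.88, 5.32 and 5.67 in iPS6F and 4.45, 4.68 and 4.44 in iPS4F (1.10 ± 0.14, adjusted p = 8.68e-04). In these 3 genes, as in every called probe that was higher, the lowest iPS6F array stood clear of the highest iPS4F array. The ESC means of 8.36, 5.41 and 4.66 lay between the means of the lines. Cyp2b genes are near-identical copies of each other, so the Cyp2b23 probe may report on more than 1 of them. The other Cyp2b23 probe gave 0.26 and did not pass. The other genes of largest positive difference were Ssbp4 (0.96), a protein that binds single-stranded DNA, Spink1 (0.83), a protease inhibitor, Pros1 (0.76), the anticoagulant protein S, Myo7a (0.76), an unconventional myosin, and Tuba3a (0.75), an alpha-tubulin.

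Probes of the same gene were set against each other. Of the 88 called genes, 47 had a single kept probe and 41 had more. In 30 of the 41 all kept probes shared a sign, in 6 at least 2 probes were called, and in 2, Ly6g6e and Pkm, all kept probes were. The others with at least 2 called probes were Acta2, Pml, Sort1, a sorting receptor of the Golgi, and Tuba3a. No gene had called probes in both directions. Of the 56 other kept probes of these genes, 45 had the sign of the called probe. Tuba3a gave 4 differences between 0.70 and 0.75, of which 2 were called, but tubulin genes share long stretches of sequence. Hes6 gave -0.89, -0.79 and -0.72, of which the first was called. In 11 genes a kept probe had the opposite sign to the called one. Besides Rps3, Nid1, Smad3 and Cxcl12, given above, they include Trmt1, a tRNA methyltransferase, with -0.77 beside 0.03. Nectin2, a cell adhesion molecule, gave -0.65 beside 0.26 and -0.16, and Acsl5, an enzyme that activates long-chain fatty acids, gave -0.60 beside 0.10. Elsewhere a called probe stood beside others of the same sign near 0. That was so for Zfp330 and Zfp869.

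**Figure D3:**
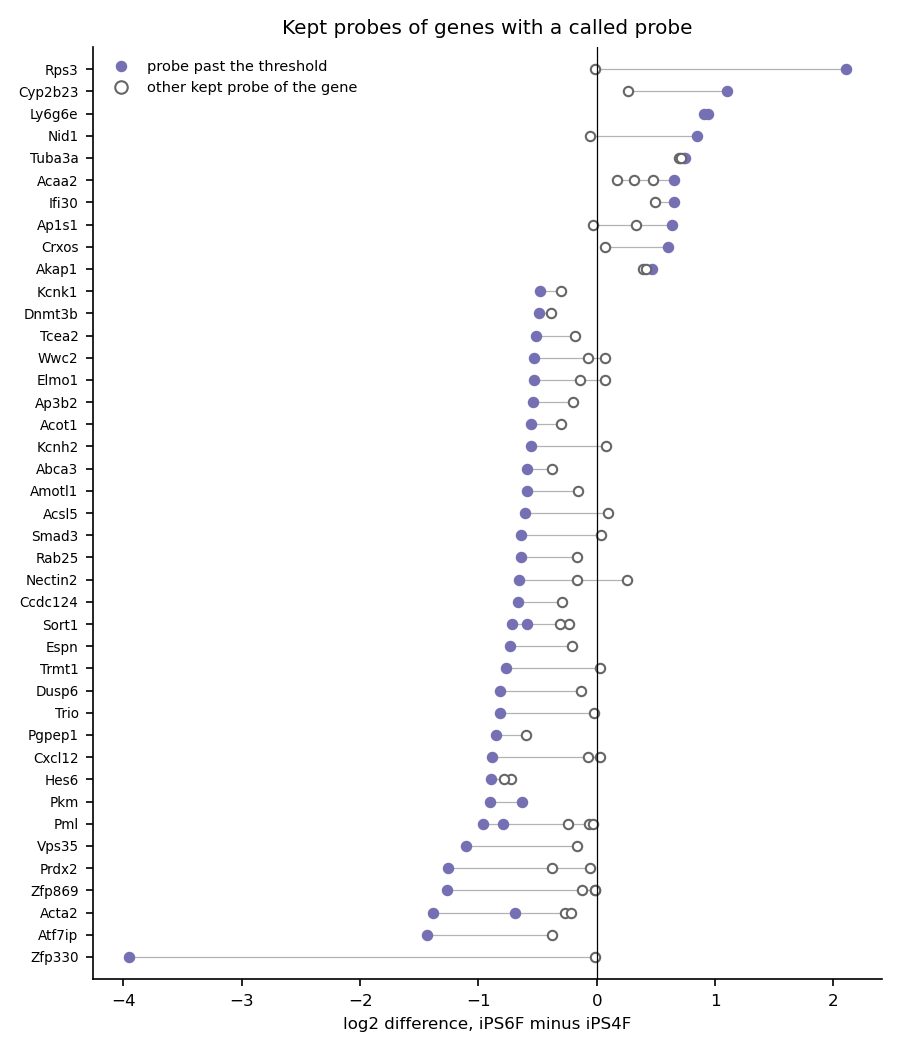
Log2 differences between iPS6F and iPS4F (horizontal axis) of all kept probes of the 41 called genes that had more than 1. Filled points passed the test and open points did not, and a line joins the probes of a gene. Ly6g6e, Tuba3a, Hes6 and Pkm show probes close together, whereas Zfp330, Rps3 and Atf7ip show a called probe far from the other.

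The comparison was repeated under other normalizations of the same arrays, among them the authors' own log2 table. All 106 probes kept their sign under all 6 alternatives. In the table that the authors deposited, 44 probes passed, 12 higher and 32 lower, and 37 of these were among the 106. With the arrays scaled to their medians, 41 passed, 3 higher and 38 lower, so that 7.32% of calls were higher in place of 34.0%. That scaling, over kept and unkept probes alike, moved the median of the kept probes to -0.25. Without background correction 140 passed and 46.4% of them were higher. With an offset of 50, and with scaling to the median of the kept probes, 136 passed and 44.9% were higher. The last of these put the median of all kept probes at 0.05.

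Under all 6 normalizations 16 probes were called, 13 lower and 3 higher. The lower ones were those of Zfp330, Msmo1, Cep19, Atf7ip, Acta2, Sgip1, Zfp869, Prdx2, Slc40a1, Vps35, Lefty1, Pml and Cxcl12, and the higher ones those of Rps3, Maats1 and Cyp2b23. The same 16 were also called with each iPS array left out in turn, as were 35 of the 106 in all. The other calls ended in at least 1 of these fits, each of which has fewer arrays to test with. Of the 106, 57 were called without iPS6F array 1, 53 without array 2 and 44 without array 3. Without iPS4F array 1 the number was 48, without array 2 it was 42 and without array 3 it was 91. Of the genes described here Col4a1 passed in none of these 6 fits. Lox, Dnmt3b, Fgf4, Lama1, Rab25, Oasl2, Spink1, Ifi30, Nectin2 and Sort1 passed in 1. Acta1, Smad3, Pigx, Gpt2, Gcdh, Trim8, Bach1, Myo7a, Aamdc, Acsl5, the bright Pkm probe and the Tuba3a probe at 0.75 passed in 2. Rhox9, Zfp930 and Ccdc124 passed in 3, and Nid1, Trmt1, the dim Pkm probe and the other called Tuba3a probe in 4. Emp1 and the second called Acta2 probe passed in 5. The highest adjusted p among these fits was 0.142 for Spink1, 0.0781 for Myo7a, 0.224 for Ifi30 and 0.132 for Gcdh. For the Tuba3a probe at 0.75 it was 0.107. All of these kept their sign in all 6, which the lack of overlap between the groups had fixed beforehand.

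**Figure D4:**
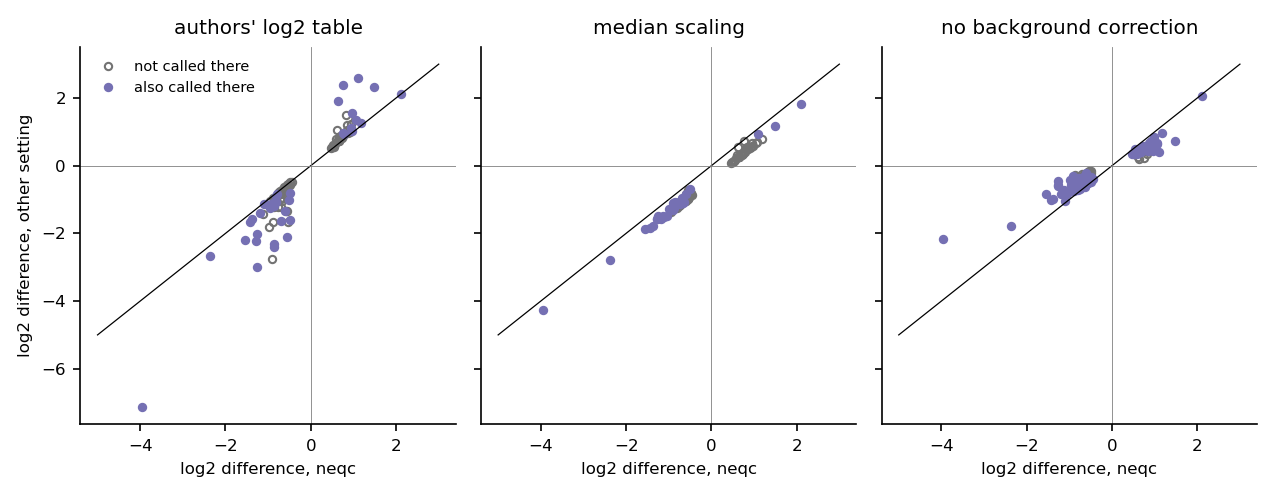
Log2 differences of the 106 called probes in the main processing (horizontal axis) and in the authors' log2 table, after median scaling and without background correction (vertical axes). Filled points were also called there, and the diagonal marks equality. All points keep their sign. The Zfp330 probe lies lowest in each panel, at -7.13 in the authors' table, and the points after median scaling lie below the diagonal.

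Called probes were unevenly spread over the chromosomes. Chromosome 8 held 20 of them among 825 tested, or 2.42%, 4 higher and 16 lower. The other autosomes held 73 among 13972, or 0.522%, with single chromosomes between 0.0759% and 1.46%. The next highest were chromosome 16 with 7 of 479 and chromosome 7 with 15 of 1126. The median difference over chromosome 8 was -0.037, against -0.0165 to 0.0104 on the other autosomes. On chromosome 8 the calls gathered in a stretch from Msmo1 to Gpt2, chosen after the values were seen and given with no test. This stretch holds 149 of the 540 measured genes, and 14 of its 222 probes were called (6.31%), 3 higher and 11 lower, against 6 of 603 (0.995%) on the rest of the chromosome.

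Along the stretch the lower genes Msmo1, Zfp930, Zfp869, Pgpep1, Ccdc124, Zfp330, Trmt1, Gcdh, Prdx2, Vps35 and Gpt2 were interspersed with the higher genes Ssbp4, Ifi30 and Gadd45gip1. Ssbp4 and Pgpep1 have 2 annotated genes between them and differed by 0.96 and -0.85. Gadd45gip1 has 3 genes between it and Trmt1 and 4 between it and Gcdh, and these differed by 0.84, -0.77 and -0.66. These are the called probes. The other kept probes of the lower genes gave 0.03 for Trmt1, -0.01 for Zfp330 and -0.17 for Vps35, -0.38 and -0.06 for Prdx2, and -0.12 to -0.01 for Zfp869. Those of Pgpep1 and Ccdc124 gave -0.60 and -0.30, and that of Ifi30 gave 0.49. None of these other probes passed, and the remaining genes of the stretch named here had 1 kept probe each. The share called on chromosome 8 stayed above that of the other autosomes under all 6 other normalizations and with each iPS array left out, at 1.09% to 2.79% against 0.2% to 0.952%. Elsewhere, called genes lay close together on chromosome 6, where Hebp1 and Emp1, both higher, and Atf7ip, lower, follow each other with 3 genes between each. Aamdc and Myo7a, both higher, have 5 genes between them on chromosome 7.

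**Figure D5:**
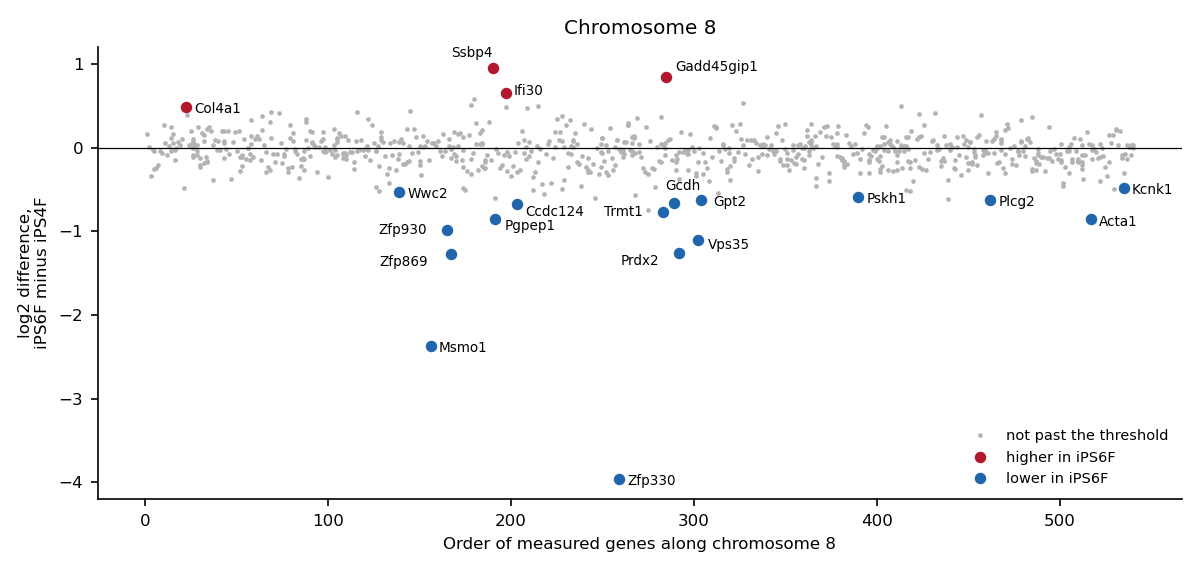
Log2 difference between iPS6F and iPS4F (vertical axis) for the 825 probes of chromosome 8, placed by the order of the 540 measured genes (horizontal axis). Blue points are called lower and red points called higher in iPS6F, and 14 of the 20 lie between Msmo1 and Gpt2.

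The 106 probes were also placed against the landmark groups. The ESC mean lay nearer to the iPS6F mean for 46 of them and nearer to the iPS4F mean for 60. For MEF the numbers were 45 and 61. Of the 70 lower probes, 33 had an ESC mean nearer to iPS6F and 37 nearer to iPS4F, and of the 36 higher ones 13 and 23. The called probes therefore did not all lie on the side of ESC in either line.

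Over 35 gene lists with 777 entries, 585 entries had a kept probe, and they named 550 genes. Of these 19 were called, or 3.45%, against 80 of 10096, or 0.792%, over all genes with 1 probe each. The lists were drawn up with earlier results of these data known, so that share is a description. No gene was called in 19 lists, 1 gene in 12 and 2 genes in 4. Beside the lists above, Rab25, a small GTPase of epithelial cells, was lower among 20 epithelial genes (-0.64, adjusted p = 0.0303), and without any array but iPS4F array 1 its call ended (up to 0.161). Myl9 was the called member of 23 genes of cytoskeleton and adhesion. Oasl2, an interferon-induced gene, was undetected on all iPS6F arrays and at least 1.29-fold lower there (adjusted p = 0.0435), the sole call among 21 interferon and antigen presentation genes. Without any array but iPS4F array 3 the Oasl2 call ended (up to 0.224). Irf1, a transcription factor of that response, differed by -0.51 (adjusted p = 0.0552).

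Lists without a call covered signalling, growth and stress. Over all genes the share called was 0.792%, so the absence of a call in lists this short sets none of them apart. They were the targets of BMP (10 measured, 8 positive, median 0.086) and Wnt (8 measured), the LIF and STAT3 pathway (12 measured, median 0.066), cell cycle and replication (24 measured, median -0.019) and cell cycle inhibitors and p53 targets (19 measured). The same held for oxidative phosphorylation (22 measured, 15 positive, median 0.051), ribosome biogenesis (15 measured), hypoxia (16 measured), the unfolded protein and heat shock response (17 measured) and one-carbon, serine and polyamine metabolism (12 measured). Transcripts of the 2-cell stage (6 measured), blood and macrophage markers (13 measured), neural genes (9 measured), Hox and developmental regulators (10 measured) and the sex markers (4 measured) had none either. The medians of the 19 lists ran from -0.22 for the sex markers to 0.225 for the reprogramming factors.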

How the data were processed

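Transcripts were profiled with Illumina bead arrays, 3 for each of iPS6F, iPS4F, ESC and MEF, grouped by title. The arrays carried biotinylated cRNA made from total RNA, per the labels' protocols. The deposited table holds the probe intensities, per the file headers, which were not normalized (lowest 64.1, highest 21025). Its detection p-value columns, per the file headers, give for each probe whether it exceeded background. A second table by the authors holds log2 values that rank the probes of each array as the intensities do (lowest Spearman correlation 1) with a common median of 1.16, whose making the sources used here do not describe. The submitters' processing notes name lumi, RMA and BeadStudio 3.2 without saying what each did.

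From the intensities, neqc of limma 3.58.1 (R 4.3.3) removed background, added an offset of 16, quantile-normalized and took log2. This understates folds of dim probes. Probes were kept where some group had detection p under 0.05 on all of its 3 arrays. All 12 arrays entered one fit with 4 group means (lmFit, eBayes), iPS6F minus iPS4F was tested, and p-values were Benjamini-Hochberg adjusted over the 17563 kept probes. The steps were tested on simulated data. Where no array of a group detected a probe, its fold is a bound. The number of arrays limits the precision, and no slide or scan was used as a batch.

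The platform annotation gave 1 symbol to 34885 of the 45281 probes, several to 18 and none to 10378. These names can be old. Gene lists used each gene's brightest kept probe, and summed marker levels are intensities with the offset taken off. Named genes were the 15 probes of largest difference in each direction among those called, without overlap, detected in the higher group and properly named, plus the factors, the BAF subunits and the leading members of each list. Genes outside this rule were chosen after their values were seen. They include those named for probe agreement and by their place on chromosomes. The comparison, the lists and the rule were chosen with earlier results of these data known. A GRCm38.p6 gene table gave chromosomes and gene order, and RefSeq windows for that build gave promoters. Alternatives were other normalizations, filters, fits and probe summaries, and leaving out each iPS array. Scaling to the median of the kept probes was chosen after seeing the data.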

Additional observations from a re-analysis of the deposited data

How the results depend on the processing

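All 106 called probes kept their direction under every alternative that tested them as probes. Only the other normalizations could have changed it. The other alternatives keep the array values, and in every called probe the arrays of the groups did not overlap. Against 106 called probes (36 higher, 70 lower), the authors' log2 table called 44 (12 and 32), median scaling 41 (3 and 38), a fit of the 6 iPS arrays alone 33 (11 and 22), array weights 310 (118 and 192) and the 2-fold requirement 18 (6 and 12). Higher calls came to 65 without background correction and to 61 both with an offset of 50 and with scaling to the median of the kept probes, a setting added after seeing the data. Leaving out 1 iPS array gave 43 to 178 calls, 17 to 63 higher and 24 to 115 lower. The fewest came without iPS4F array 2 and the most without iPS4F array 3. Without iPS4F array 1 there were 48, and without iPS6F arrays 1, 2 and 3 there were 67, 55 and 49. The labels do not say whether the replicate numbers pair the samples, and the main fit did not pair them. Deviations of same-numbered arrays correlated at -0.118, 0.164 and -0.0738. Differently numbered arrays were not compared in this way, so these values cannot decide on pairing. A block on the replicate numbers gave 73 calls, 28 higher and 45 lower. Uncalled differences turned under median scaling for Smarca4 (-0.132), Smarcc1 (-0.147) and Sox2 (-0.326). That of Sox2 also turned over the mean of its probes (-0.0195) and under scaling to the median of the kept probes (-0.0174), and with arrays left out it ran from -0.0407 to 0.215. That of Myc, which is undetected, ran from -0.00531 to 0.0831. The fit of 6 arrays has fewer arrays to estimate the spread; for the other settings the cause was not tested. Dim probes, close to background, limit what can be said of genes such as Acta1, Oasl2 and Nid1's second probe.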

Other observations

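Of the 12 called probes with no single gene symbol here, 3 were detected on all iPS arrays and on no ESC or MEF array. Not all of these 3 are described here. The probe ILMN_2473811 read 7.03, 7.35 and 7.26 in iPS6F and 6.47, 5.90 and 6.09 in iPS4F, a difference of 1.06 ± 0.13 (limma adjusted p = 7.76e-04). The probe ILMN_1245887 read 6.76, 7.23 and 7.21 in iPS6F and 6.27, 6.16 and 5.64 in iPS4F, a difference of 1.05 ± 0.16 (limma adjusted p = 0.00342). The ESC means of both, 4.12 and 4.15, are at background. What transcripts these probes measure was not analysed here.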
